A study of Saccharomyces cerevisiae with 10 samples.

Results

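The comparison is between the 2 arrays at the highest doses of the microtubule drug benomyl, 35 and 40 µg/ml, and the 2 arrays at 25 and 30 µg/ml. The 4 arrays were chosen by dose from the labels, out of 10 arrays that ran from 0 to 40 µg/ml. They were all read after 4 days of selection at 30 °C, so the days of growth do not differ between the pairs. Each dose was a single array, and the spread between neighbouring doses of a pair (25 against 30, 35 against 40) stands for the error. That spread holds any effect of 5 µg/ml of drug as well as the scatter between arrays, and the labels do not say whether the arrays came from separate sporulations.

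Benomyl binds tubulin and takes apart microtubules, the filaments that form the mitotic spindle. Cells with a damaged spindle are held in mitosis by the spindle checkpoint, and yeast strains that make little tubulin, fold it poorly or lack that checkpoint are known to be sensitive to the drug. The pool held 5896 heterozygous diploid knockout (YKO) strains of Saccharomyces cerevisiae, each with 1 gene deleted on 1 chromosome copy and marked by DNA barcodes. After sporulation, MATa haploids were selected on magic medium, on which other cells of the culture do not grow, with the stated dose of benomyl in one pool and no benomyl in the other. The pools compared on one array grew for equal times. Barcodes were amplified from genomic DNA, with Cy5 as the dye of the drug-free pool and Cy3 as that of the benomyl pool, and hybridised together to one Hopkins TagArray. A barcode's ratio is a share of its pool: slower growth of a strain, fewer surviving spores and less DNA per cell cannot be told apart.

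Here the level of a strain is its log2 ratio, centred on the median of the named spots of that array and averaged over the strain's spots. With Cy5 over Cy3, the usual order of the scanner's program, a level above 0 means that the strain was scarcer in the pool with drug. That direction is likely but not settled by the sources, and every sign would turn with the other order. A difference is the mean level at 35 and 40 µg/ml minus the mean level at 25 and 30 µg/ml, so that a difference of 1 is 2-fold, and it is followed by its standard error from limma, a linear model fitted to all strains together. Levels are listed in the order 25, 30, 35 and 40 µg/ml.

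Levels were measured for 5325 strains, 5324 of them on all 4 arrays; SWI1 had no usable spot at 40 µg/ml. The arrays did not have the same spread. The standard deviation of the level over strains was 1.01, 1.14, 1.29 and 1.46, and the number of strains at least 2-fold above the array's median was 567, 591, 788 and 1026. Spots at the lowest ratio in the table, 0.01, numbered 1, 45, 48 and 92, and a level there is only a bound. The correlation of levels between arrays over strains was 0.740 for 25 with 40 µg/ml, the lowest of the 6 pairs, and 0.851 for 30 with 35 µg/ml, the highest, although those 2 doses lie in different groups. The step from 30 to 35 µg/ml had a standard deviation of 0.678 over strains, against 0.650 for the step from 25 to 30 and 0.844 for the step from 35 to 40 µg/ml. The step between the groups thus lay between the steps inside them in width.

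No strain passed the test. With limma and Benjamini-Hochberg adjustment over 5325 strains, 0 strains (0%) were called higher and 0 (0%) lower, and the lowest adjusted p was 0.286, for RPN10. At an unadjusted p under 0.05, limma had 255 strains higher (4.79%) and 273 lower (5.13%). For a single strain an exact permutation test of 2 arrays against 2 cannot go below a two-sided p of 0.333. What follows is therefore a description of levels, and "higher" and "lower" refer to measured values and not to calls. Over all 5325 strains 2832 differences were positive and 2493 negative. The groups did not overlap, with both upper doses above both lower doses, in 1219 strains (22.9%), and with both below in 1053 strains (19.8%). At least 2-fold and without overlap were 265 strains higher (4.98%) and 316 lower (5.94%), and these are the strains called "past 2-fold" below, of which 45.6% were higher. With ratios left as deposited, where all strains had a median difference of 0.15 rather than 0.04, the counts were 370 and 237, or 61.0% higher, and with arrays scaled to the same spread 215 and 225, or 48.9% higher. Without the 35 µg/ml array 591 were higher and 604 lower, and without the 30 µg/ml array 429 and 546. Without the 25 µg/ml array there were 349 higher and 277 lower, or 55.8% higher, so the larger side turned, and without the 40 µg/ml array there were 292 and 318.

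**Figure D1:**
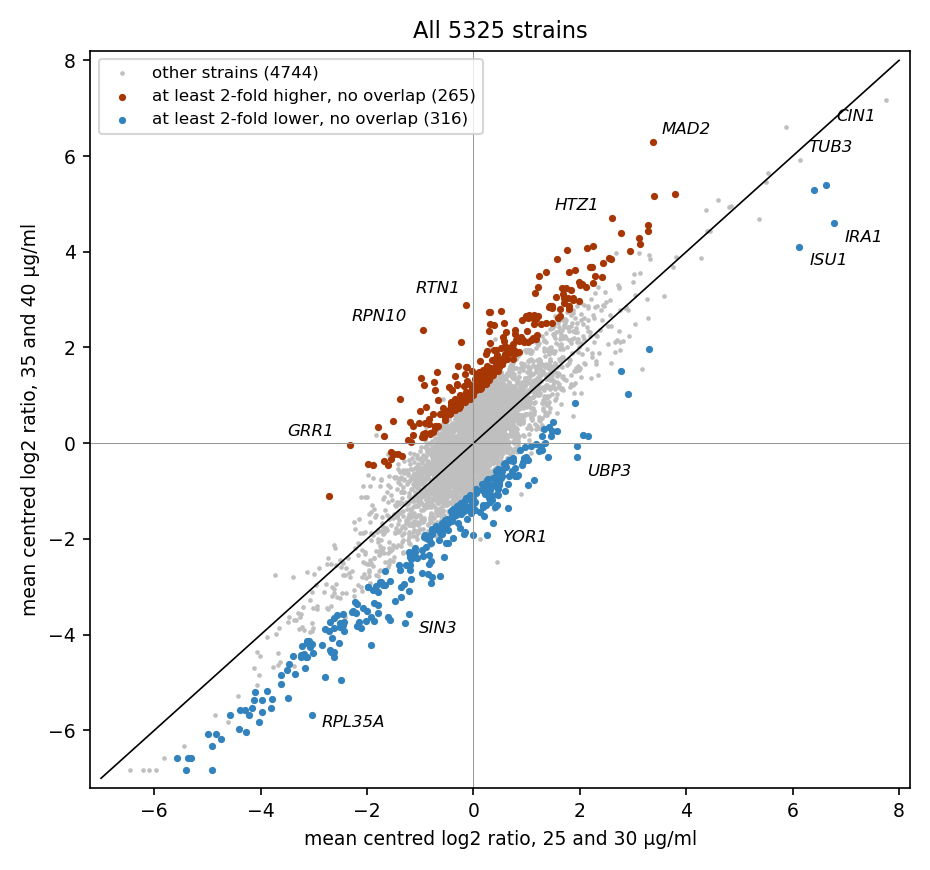
Mean centred log2 ratio of each of 5325 strains at 25 and 30 µg/ml (x axis) and at 35 and 40 µg/ml (y axis), with the line of equal values; red and blue points are the 265 strains higher and 316 lower by at least 2-fold without overlap of the arrays. Points lie along the line at both ends, and blue points are most frequent at the low end, where 118 of 526 strains that started at least 2-fold below the median are blue.

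The 2-fold differences were not spread evenly over the starting levels. Of 526 strains whose mean level at 25 and 30 µg/ml was at or below -1, 118 were lower past 2-fold (22.4%) and 22 were higher (4.18%). Of 516 strains that started at or above 1, 72 were higher (14.0%) and 29 lower (5.62%). Of the 4283 strains between them, 171 were higher (3.99%) and 169 lower (3.95%). Levels thus lay farther from the median at the upper doses on the side where they already were, and the spread over all strains was wider at those doses as well. For that reason the lists of genes below are given a second median where it matters, from arrays scaled to the same spread, named the equal-spread median. Both sections of the array layout, which each hold a spot of nearly every strain, had the same sign of difference in 253 of the 265 strains higher and in 295 of the 316 lower. Those strains were selected on the mean over both sections, which favours the same sign. Over 5275 strains without that selection, the correlation of the difference between the sections was 0.452. Section values are given below for some strains only. Others past 2-fold were also unequal, such as SWC5 (2.50 and 0.37) and VMA10 (0.21 and 2.29).

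Genes whose loss a haploid cell does not survive give a reference, since their strains should be missing from both pools and their spots should carry background only. Among 73 such genes measured, 4 were higher past 2-fold (5.48%) and 9 lower (12.3%), with a median difference of -0.14 against 0.04 over all strains. The proteasome ATPase gene RPT2 had the highest difference of these, 1.98 ± 0.46, with levels of -1.21, -1.81, 0.91 and 0.03. PRE7, a core proteasome subunit gene, had the lowest, -1.54 ± 0.44, with levels of 0.31, 0.40, -0.71 and -1.66. Their arrays did not overlap either, so a difference of this size also occurred where no live strain is expected. Strains named below that are outside these 73, such as RPL32, PRP6 and ARC19, were not checked for haploid survival.

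The strains described first are the 15 with the largest difference in each direction among those with a value on every array, no overlap and the same sign in both sections. RPN10 encodes a subunit of the proteasome that holds ubiquitin chains, and its strain had the largest difference of all. Its levels were -0.96, -0.96, 2.16 and 2.58, a difference of 3.33 ± 0.37 or 10.1-fold. The 12 spots of this strain averaged about 2-fold below the median at both lower doses and well above it at both upper doses, and nearly the whole difference lay in the step from 30 to 35 µg/ml. The sections of the layout gave 2.97 and 3.69. In a limma fit of all 10 arrays as 5 dose pairs, which takes the spread from all pairs, RPN10 was the one strain called, with an adjusted p of 0.0043. Its standard error there was 0.26. The arrays from 0 to 20 µg/ml had a smaller standard deviation over strains, 0.51 to 0.89, and the pair of 15 and 20 µg/ml mixes 3 and 4 days of selection. That error is therefore not the error of the 4 arrays compared. With limma on the first section alone, the lowest adjusted p of any strain was 0.543. The reticulon gene RTN1, which shapes tubules of the endoplasmic reticulum, came next, with levels of 0.20, -0.49, 2.36 and 3.41 and a difference of 3.03 ± 0.49. Its paralog RTN2 differed by 0.29 ± 0.37 and its partner YOP1 by -0.39 ± 0.50, neither past 2-fold.

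MAD2, which encodes the spindle checkpoint protein that blocks the anaphase activator, was already high at the lower doses. Its levels were 2.66, 4.09, 5.02 and 7.57, a difference of 2.92 ± 0.87. Each dose was above the one before, and the widest step was the last; with arrays scaled to equal spread the difference was 1.09 and the arrays overlapped. ELM1, a kinase gene of the bud neck that also activates the Snf1 kinase, had levels of 0.27, 0.30, 1.57 and 3.91, a difference of 2.45 ± 0.73. BMH1, one of a pair of 14-3-3 genes, had levels of 0.15, 0.47, 1.63 and 3.37, a difference of 2.19 ± 0.60. Both strains were near the median at the lower doses and highest at 40 µg/ml. The other 14-3-3 gene, BMH2, differed by -0.20 ± 0.54, and its arrays overlapped.

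PBP2, which encodes an RNA-binding protein with KH domains, had levels of -0.38, -0.10, 2.31 and 1.91 and a difference of 2.35 ± 0.38. MDM10 encodes a mitochondrial outer membrane protein of the tether between mitochondria and endoplasmic reticulum, and its levels were -0.44, -1.53, 1.62 and 1.09, a difference of 2.34 ± 0.49. EPS1, a protein disulfide isomerase gene of the endoplasmic reticulum, had levels of -0.78, -1.96, 1.01 and 0.85 and a difference of 2.30 ± 0.48. These 3 strains crossed the median between 30 and 35 µg/ml and were no higher at 40 than at 35 µg/ml. The sections gave unequal values for EPS1, 3.87 and 0.74. Of the other genes of the MDM10 tether, MDM12 differed by 1.03 ± 0.46, MDM34 by 0.74 ± 0.37 and MMM1 by -0.38 ± 0.43. Only MDM12 among these was past 2-fold, with levels of 1.58, 1.58, 3.17 and 2.07.

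GRR1, which encodes the F-box subunit of a ubiquitin ligase for G1 cyclins and glucose sensing, started low, with levels of -2.57, -2.08, -0.97 and 0.90 and a difference of 2.30 ± 0.63. It went from well below the median to above it. GLE2, a nuclear pore gene for RNA export, had levels of -0.42, -0.93, 1.06 and 1.93 and a difference of 2.17 ± 0.45. AHP1, which encodes a thioredoxin peroxidase, had levels of 1.75, 1.40, 2.75 and 4.94 and a difference of 2.27 ± 0.70. MRH4, an RNA helicase gene needed for the mitochondrial ribosome, had levels of 1.36, 2.17, 2.79 and 5.26 and a difference of 2.26 ± 0.79. AHP1 and MRH4 were both high at all 4 doses, and for both the step from 35 to 40 µg/ml was wider than the one before.

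SAS2 encodes the acetyltransferase that acts on histone H4 at lysine 16, and its levels were 0.80, 1.65, 2.48 and 4.50, a difference of 2.27 ± 0.69. The other subunits of its complex differed less, SAS4 by 0.41 ± 0.66 and SAS5 by 0.61 ± 0.36. ARD1 encodes the catalytic subunit of the N-terminal acetyltransferase NatA, and its levels were 1.17, 1.55, 2.96 and 4.18, a difference of 2.21 ± 0.50. Its partner NAT1 was the closest of the NatA genes, with levels of 1.85, 2.55, 3.32 and 4.05 and a difference of 1.49 ± 0.45, and NAT5 differed by 0.65 ± 0.40. IGO2, an endosulfine gene that protects mRNA on entry into quiescence, had levels of 0.53, 0.53, 2.26 and 3.28 and a difference of 2.25 ± 0.45. Its paralog IGO1 differed by 0.14 ± 0.46. RIM15, the kinase gene of that pathway, was high at all 4 doses with levels of 3.39, 3.79, 3.28 and 2.88, and its difference of -0.51 ± 0.39 had the other sign.

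**Figure D2:**
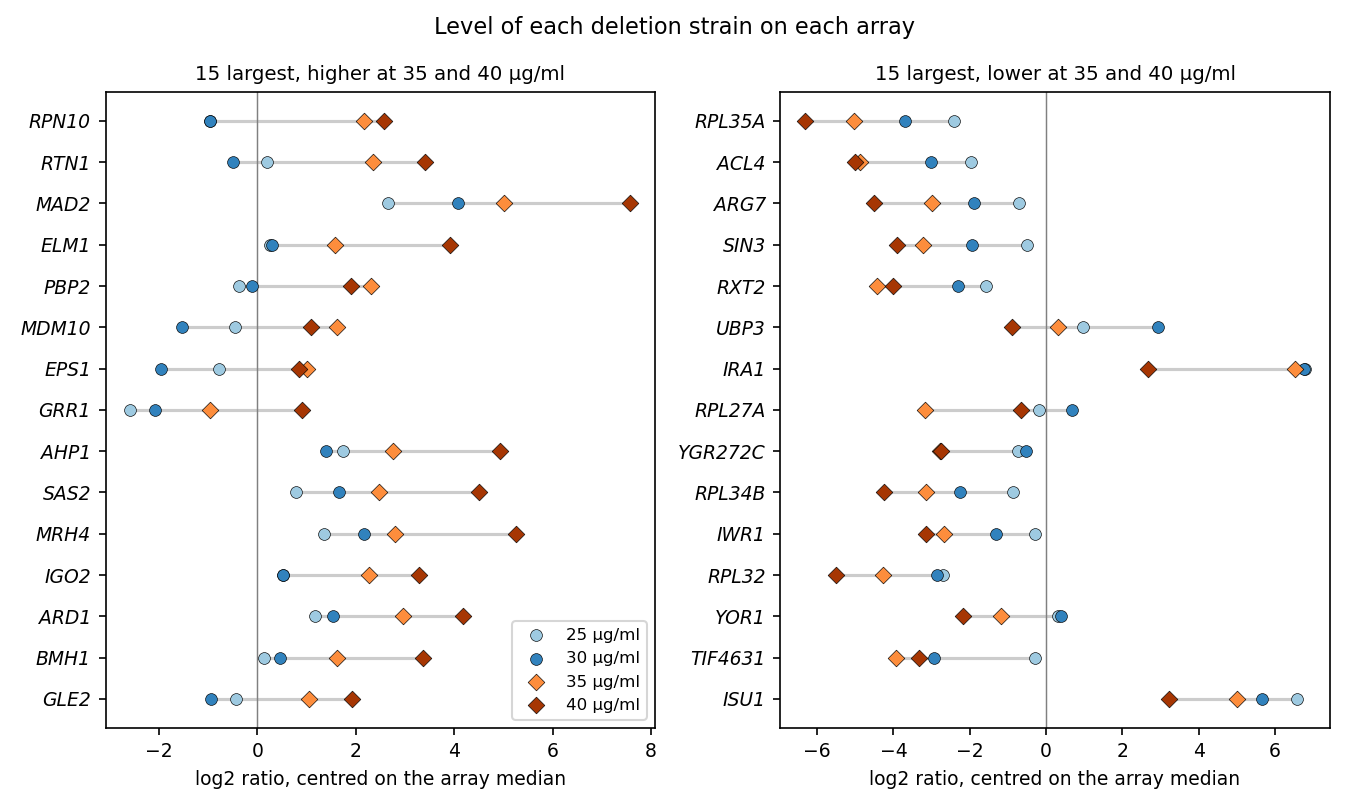
Centred log2 ratio on each of the 4 arrays (x axis) for the 15 strains with the largest difference in each direction (rows) among those measured on all arrays, with no overlap and the same sign in both sections. Circles are 25 and 30 µg/ml and diamonds 35 and 40 µg/ml; RPN10 jumps between the pairs, while MAD2, RPL35A and SIN3 shift at every step. With arrays scaled to equal spread MAD2 and TIF4631 overlap, and all 30 keep their side.

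RPL35A, like the other RPL genes here, encodes a protein of the large subunit of the cytosolic ribosome. It had levels of -2.40, -3.68, -5.04 and -6.31 and the lowest difference of the strains that met the conditions, -2.63 ± 0.60. One of its spots was at the lowest ratio of the table at 1 dose, so the level there is an upper bound. ACL4, a chaperone gene for the ribosomal protein Rpl4, had levels of -1.97, -3.01, -4.88 and -5.01 and a difference of -2.46 ± 0.46. Each of these 2 strains was lower at every dose than at the one before. RPL4A, which encodes the client of Acl4, differed by -0.69 ± 0.44. RPL34B had levels of -0.86, -2.27, -3.13 and -4.24 and a difference of -2.13 ± 0.60. RPL32 had levels of -2.70, -2.86, -4.27 and -5.51 and a difference of -2.11 ± 0.49, which was -0.63 with arrays at equal spread. Whether a haploid survives without RPL32 was not checked, so its spots may carry background only. The translation initiation factor gene TIF4631 had levels of -0.28, -2.93, -3.94 and -3.32 and a difference of -2.03 ± 0.82. Most of that lay between 25 and 30 µg/ml, inside a group, and without one array it ran from -3.36 to -0.71; its paralog TIF4632 differed by -0.17 ± 0.48. RPL27A had levels of -0.19, 0.69, -3.17 and -0.66 and a difference of -2.17 ± 0.80, and it was low on the 35 µg/ml array more than on the other 3. Left out in turn, single arrays moved it from -3.42 to -0.91.

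SIN3 and RXT2 encode subunits of the large Rpd3 histone deacetylase complex, SIN3 its scaffold. SIN3 had levels of -0.50, -1.93, -3.23 and -3.91 and a difference of -2.35 ± 0.56. RXT2 had levels of -1.57, -2.29, -4.43 and -4.0 and a difference of -2.28 ± 0.42. SIN3 shifted at every step, RXT2 mostly between 30 and 35 µg/ml. ARG7, an arginine synthesis gene, had levels of -0.70, -1.89, -2.98 and -4.51 and a difference of -2.45 ± 0.64. IWR1, needed to bring RNA polymerase II into the nucleus, had levels of -0.29, -1.30, -2.68 and -3.15 and a difference of -2.12 ± 0.47. YGR272C, to which the gene table used here gives no name, had levels of -0.73, -0.54, -2.78 and -2.75 and a difference of -2.13 ± 0.36. Its 2 arrays within each pair lay close together and the pairs far apart.

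A further 4 strains were above the median at both lower doses. YOR1, which encodes a drug efflux pump of the plasma membrane, had levels of 0.32, 0.40, -1.18 and -2.17 and a difference of -2.04 ± 0.45. UBP3, a ubiquitin protease gene, had levels of 0.96, 2.92, 0.30 and -0.90 and a difference of -2.24 ± 0.72, while its cofactor gene BRE5 differed by -0.06 ± 0.37. ISU1, which encodes the scaffold on which mitochondria build iron-sulfur clusters, had levels of 6.59, 5.67, 5.00 and 3.21 and a difference of -2.02 ± 0.65. ISU1 was far above the median at all 4 doses and less so at each higher dose. Its paralog ISU2 had levels of 0.46, 0.50, 0.70 and 2.63 and a difference of 1.19 ± 0.63 with the other sign. IRA1, which encodes a brake on Ras, had levels of 6.78, 6.77, 6.52 and 2.67 and a difference of -2.18 ± 1.10. That difference rested on 1 array: without 40 µg/ml it was -0.26. Its paralog IRA2 had levels of 4.10, 1.23, 0.58 and 3.65, with no order by dose.

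Some differences of this size were kept out by the conditions on overlap and sections. PRP6, a splicing factor gene, had levels of 0.89, -0.01, 0.53 and -5.51, and ARC19, an actin-nucleating complex gene, had levels of 0.07, 0.20, 0.89 and -4.90. In both cases 1 array alone, that at 40 µg/ml, was low, and survival of haploids without these genes was not checked. RKM3, a ribosomal protein methyltransferase gene, differed by 2.43 ± 0.48, but its sections gave 4.95 and -0.09. Gene neighbours can be hit by one deletion. Of 52 measured neighbours of the 30 strains, 2 were past 2-fold the same way, against 4.98% higher and 5.94% lower over all strains. These were SWC5 beside PBP2 at 1.44 and GTR2 beside TIF4631 at -1.23.

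Microtubule genes come first among the lists, because benomyl binds tubulin. Strains lacking the second alpha-tubulin gene TUB3 or a tubulin folding cofactor had the highest list median on each of the 4 arrays, and as a list they were not higher at 35 and 40 than at 25 and 30 µg/ml. CIN1 had levels of 8.51, 7.0, 7.24 and 7.09, a difference of -0.59 ± 0.54. TUB3 had levels of 6.31, 5.95, 5.87 and 5.96, a difference of -0.22 ± 0.37, and CIN4 had levels of 5.92, 5.16, 5.49 and 5.79, a difference of 0.10 ± 0.42. The arrays of all 3 overlapped. CIN2 was lower past 2-fold, with levels of 6.92, 6.32, 5.66 and 5.15 and a difference of -1.22 ± 0.42. RBL2, whose product binds beta-tubulin, was higher past 2-fold, with levels of 0.55, 0.60, 1.06 and 3.23 and a difference of 1.57 ± 0.69, nearly all from the 40 µg/ml array. ALF1 differed by -0.65 ± 0.51 and PAC2 by -0.15 ± 0.42. Over the 7 genes, 1 was past 2-fold in each direction, and the median was -0.22 against 0.04 for all strains, with an equal-spread median of -2.17. Under quantile normalization, and without the 25 µg/ml array, the median turned positive.

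Prefoldin hands unfolded tubulin and actin to the chaperonin. Its 6 strains were high on all 4 arrays, and PFD1 alone was past 2-fold, lower, with levels of 6.47, 6.35, 5.44 and 5.14 and a difference of -1.12 ± 0.37. PAC10 differed by -0.69 ± 0.55, GIM3 by -0.68 ± 0.44, GIM4 by -0.42 ± 0.36, GIM5 by 0.11 ± 0.55 and YKE2 by 0.14 ± 0.41. The list's median was -0.55 and its equal-spread median -1.98. In both this list and the tubulin list, high levels at the lower doses were not followed by higher list medians of the difference.

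The kinetochore branch of the spindle checkpoint split into 2 kinds of course. MAD1 had levels of 2.50, 3.03, 4.18 and 4.59, a difference of 1.62 ± 0.40, and MAD3 had levels of 0.20, 1.63, 2.17 and 2.96, a difference of 1.65 ± 0.57. With MAD2 these were 3 of 6 genes past 2-fold higher (50.0%, against 4.98% of all strains), and all 3 were above their earlier level at each dose. BUB1 instead had levels of 2.78, 2.72, 2.77 and 2.79, a difference of 0.03 ± 0.36. BUB3 had levels of 1.81, 1.20, 1.29 and 1.37, a difference of -0.17 ± 0.39, and SGO1, which protects sister chromatid cohesion at the centromere, differed by 0.50 ± 0.60. BUB1 and BUB3 stayed within 1 narrow band over the 4 doses while the MAD strains did not. The difference between the MAD and BUB genes was not tested. The median was 1.06, and -0.23 with arrays at equal spread, so the list's direction flips with that scaling. At equal spread MAD1 and MAD3 had differences of 0.27 and 1.06, and 1 gene was past 2-fold higher and 1 lower.

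**Figure D3:**
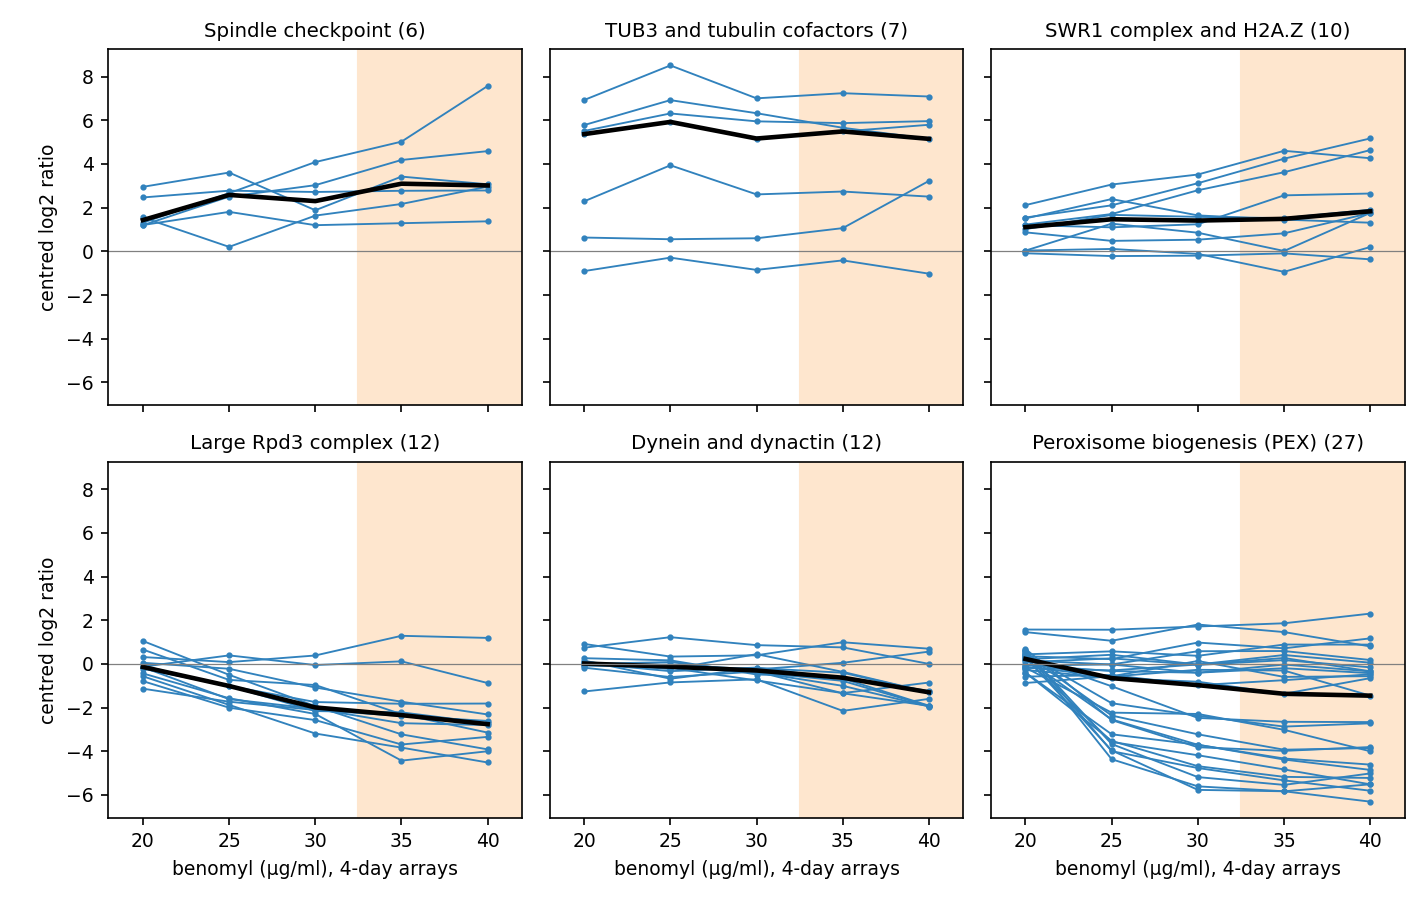
Centred log2 ratio (y axis) against dose on the 4-day arrays from 20 to 40 µg/ml (x axis) for the strains of 6 gene lists, with the number of strains in each title; thin lines are strains, thick black lines list medians, and shading marks 35 and 40 µg/ml. The tubulin list has the highest median at every dose from 25 µg/ml on, with RBL2 higher and CIN2 lower at 40 than at 25 µg/ml, and the large Rpd3 and dynein medians decline to -2.76 and -1.30 at 40 µg/ml. With arrays at equal spread the medians of the spindle checkpoint, SWR1 and peroxisome differences change sign.

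The spindle position checkpoint delays mitotic exit when the spindle is misplaced: its genes BUB2 and BFA1 differed by 1.35 ± 0.39 and 1.31 ± 0.41, and the mitotic exit gene LTE1 by 1.23 ± 0.46. These 3 of 9 were past 2-fold higher, none lower, and the lowest member was SPO12 at -0.58 ± 0.38. BFA1 had levels of 1.65, 2.35, 3.30 and 3.32. The median was 0.70, and -0.03 at equal spread, where the direction is lost and 0 of the 9 were past 2-fold. In the CTF19 complex of the inner kinetochore, 10 of 11 differences were positive, against 2832 of 5325 over all strains. In this list 2 were past 2-fold, MCM16 at 1.94 ± 0.50 and CTF3 at 1.14 ± 0.56, while NKP2 was the lowest at -0.84 ± 0.44. MCM16 went from near the median to well above it, with levels of 0.49, 0.64, 1.87 and 3.14. The median was 0.54, and 0.45 at equal spread.

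Among 10 cohesion and replication fork genes, CTF8 (1.64 ± 0.43) and DCC1 (1.55 ± 0.73), both subunits of the loader that aids cohesion, were past 2-fold higher. MRC1, a replication checkpoint gene, was lower at -1.0 ± 0.45, and the median was 0.14. CTF8 had levels of 0.14, 0.32, 1.42 and 2.31. Of 11 kinesin and plus-end genes, the microtubule-depolymerising kinesin KIP3 was past 2-fold, lower at -1.23 ± 0.39, with sections of -2.15 and -0.31. BIK1 was highest at 0.68 ± 0.61, and the median was -0.02, a value whose sign turned under 7 of 14 alternatives.

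Dynein and dynactin pull the spindle into the bud, and strains without them lay lower. Of 12 genes, 5 were past 2-fold lower (41.7%, against 5.94% of all strains) and none higher. In 9 of the 12 the upper arrays were both below the lower ones, against 19.8% of all strains. DYN3 had levels of -0.07, -0.39, -1.01 and -1.95, a difference of -1.25 ± 0.45. NDL1 differed by -1.21 ± 0.49, DYN2 by -1.16 ± 0.40, PAC11 by -1.10 ± 0.39 and PAC1 by -1.04 ± 0.49, all near or below the median at the lower doses. NUM1, the cortical anchor, differed by 0.48 ± 0.37 with the other sign. The median was -0.85, and -0.68 at equal spread, and unlike the checkpoint list this one kept its sign under all 14 alternatives. At equal spread, however, 0 of the 12 genes were past 2-fold lower and 0 higher.

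Chromatin complexes lay on both sides. SWR1 places the histone variant H2A.Z, which HTZ1 encodes, and 4 of 10 genes of this list were past 2-fold higher (40.0%) and none lower. HTZ1 had levels of 2.11, 3.12, 4.24 and 5.17, a difference of 2.09 ± 0.52, and ARP6 had levels of 1.71, 2.80, 3.62 and 4.63, a difference of 1.88 ± 0.54. Both were above their earlier level at each dose. SWC5 differed by 1.44 ± 0.36, SWR1 by 1.14 ± 0.39, and BDF1 was the lowest at -0.64 ± 0.41. The median was 0.44, and -0.12 at equal spread. HTZ1 kept a positive difference there, 0.74, but 0 of the 10 genes were past 2-fold higher and 1 was lower.

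In the large Rpd3 complex, 6 of 12 genes were past 2-fold lower (50.0%), and 11 of 12 differences were negative (2493 of 5325 over all strains). Beside SIN3 and RXT2, RPD3, the deacetylase itself, had levels of -0.73, -0.97, -2.30 and -3.15, a difference of -1.88 ± 0.43. SDS3 differed by -1.64 ± 0.54, UME1 by -1.37 ± 0.45 and PHO23 by -1.23 ± 0.40. ASH1, which brings the complex to the HO gene, was past 2-fold the other way at 1.00 ± 0.37, with levels of 0.08, 0.38, 1.29 and 1.19. The median, -1.07, was the lowest of the 44 lists, and it was -0.29 at equal spread. It stayed below 0 under all 14 alternatives, while at equal spread 3 of the 12 genes were past 2-fold lower and 0 higher. At 20 µg/ml, also after 4 days, SIN3 was at 1.05 and RPD3 at 0.66, on the other side of the median.

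Activator complexes had negative median differences. For SWI/SNF and Mediator, whose median levels were already low at 25 and 30 µg/ml, the median difference turned positive with arrays at equal spread. SWI/SNF, a nucleosome remodeller, had 3 of 10 genes past 2-fold lower, SWI3 (-1.78 ± 0.54), SNF12 (-1.56 ± 0.54) and SNF5 (-1.43 ± 0.56). SNF5 had levels of -4.60, -6.18, -6.83 and -6.81, and the last 2 are the floor of the table, so its difference is a bound on the size. With 5 of 10 genes having a floor spot, and SWI1 fitted on 3 arrays, the median was -0.67 and turned to 0.32 at equal spread. Mediator had 3 of 15 lower, SOH1 (-1.32 ± 0.46), SSN8 (-1.17 ± 0.44) and SRB5 (-1.01 ± 0.36). Its differences were negative in 14 of 15 genes, against 2493 of 5325 over all strains, and the median of -0.53 also turned, to 0.34. SAGA, which acetylates histone H3, had 3 of 12 lower, HFI1 (-1.26 ± 0.45), SPT8 (-1.17 ± 0.42) and SGF73 (-1.03 ± 0.37). For SGF73 the sections gave -2.06 and -0.01. The acetyltransferase gene of SAGA, GCN5, was highest at 0.82 ± 0.39, and the median was -0.38. Of 13 genes for COMPASS, the PAF1 complex and histone H2B ubiquitination, LGE1 (-1.33 ± 0.41) and SDC1 (-1.14 ± 0.52) were lower, and the median was -0.51. At equal spread no gene of the Mediator, SAGA or COMPASS lists was past 2-fold, and SWI/SNF had 1 higher and 0 lower.

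Nutrient signalling through TORC1 is set by opposing complexes, and their strains lay on opposite sides of the median. Strains of the EGO complex, SEACAT and Lst4-Lst7, which activate TORC1, were below the median on all 4 arrays, and 7 of 9 had spots at the floor. RTC1 had levels of -4.37, -5.48, -6.83 and -6.81 and a difference of -1.90 ± 0.47, for which the first section alone gave no value. MEH1 differed by -1.44 ± 0.42, SLM4 by -1.25 ± 0.45, GTR2 by -1.23 ± 0.42 and LST4 by -1.0 ± 0.54, and all 9 genes were negative, MTC5 least so at -0.27 ± 0.36. Levels at the floor are bounds, and SEA4 and MTC5 had no floor spot. The SEACIT genes, which inhibit TORC1, were high: NPR3 had levels of 2.90, 3.89, 4.59 and 5.74, a difference of 1.77 ± 0.54, and NPR2 had levels of 1.47, 2.48, 2.64 and 3.32, a difference of 1.00 ± 0.49. Both lists lay farther out than at the lower doses. At equal spread, however, the EGO median of -1.0 turned to 0.88, while the SEACIT median of 1.38 shrank to 0.11. In that setting 4 genes of the EGO list were past 2-fold higher and 0 lower, and 0 SEACIT genes were past 2-fold.

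Stress and glucose signalling genes past 2-fold lay on both sides, against shares of 4.98% higher and 5.94% lower over all strains. All 5 genes of the Whi2-Psr and MSN list had positive differences, PSR1, a phosphatase gene, at 1.35 ± 0.41 and MSN2, a stress transcription factor gene, at 1.07 ± 0.42 being past 2-fold, with a median of 0.82 and 0.51 at equal spread. In the Ras and PKA list IRA1 alone of 11 was past 2-fold, the highest was RAS1 at 0.61 ± 0.44 and the median was 0.09. The Snf1 list held ELM1 on one side and SIP2 (-1.61 ± 0.64) and REG1 (-1.43 ± 0.61) on the other. SIP2 had levels of -0.31, -0.44, -1.02 and -2.96, its difference being 0.31 with floor spots left out. REG1 had levels of 0.60, -0.53, -0.67 and -2.12. The sections gave -0.09 and -3.14 for SIP2, and -2.70 and -0.38 for REG1. In retrograde signalling the regulator RTG1 was higher at 1.03 ± 0.37 and its inhibitor MKS1 lower at -1.46 ± 0.39. MKS1 had been at 1.47 at 20 µg/ml and was at -3.96, -4.48, -5.83 and -5.51 on the 4 arrays, so its largest step was below this dose range. Both RTG1 and MKS1 changed sign at equal spread.

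Cell wall integrity genes were split within one pathway. The kinase gene MKK1 had levels of 1.38, 0.93, 2.38 and 3.88 and a difference of 1.97 ± 0.55, and the wall sensor gene SLG1 differed by 1.21 ± 0.47. The transcription factor genes SWI4 and SWI6, which also drive G1 cyclins, differed by -1.86 ± 0.67 and -1.33 ± 0.48; SWI4 had levels of -1.24, -2.49, -2.89 and -4.55. These were 2 of 10 on each side, the median was -0.39, and MKK2, the paralog of MKK1, differed by 0.89 ± 0.63 with overlap. Of 16 actin patch genes, RVS161 was past 2-fold, lower at -1.32 ± 0.42, with VRP1 highest at 0.74 ± 0.41.

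RNA decay had 5 of 17 genes past 2-fold higher (29.4%) and 1 lower. PAN3, a subunit of the poly(A) nuclease, had levels of 1.86, 2.39, 3.52 and 4.64, a difference of 1.95 ± 0.49, and its partner PAN2 had levels of 1.81, 2.43, 2.69 and 3.83, a difference of 1.14 ± 0.50, though the sections gave 2.60 and -0.31 for PAN2. The exonuclease gene XRN1 differed by 1.33 ± 0.61, the cap-binding regulator EAP1 by 1.27 ± 0.39 and LSM7 by 1.08 ± 0.59, while LSM1 was lower at -1.47 ± 0.54. LSM1 had levels of 0.87, 0.71, 0.07 and -1.43, and LSM7, a gene of the same ring, had levels of -0.07, -0.22, 0.08 and 1.80. The list's median was 0.00, and at equal spread 1 gene was past 2-fold higher and 2 lower. Of 8 genes of ubiquitin supply and proteasome upkeep, UMP1, a proteasome assembly gene, was past 2-fold beside RPN10, at 1.28 ± 0.49, and UBP6 was lowest at -0.58 ± 0.36.

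Drug efflux genes were on both sides. SNQ2, an ABC transporter gene, had levels of 1.37, 2.23, 2.72 and 4.44, a difference of 1.78 ± 0.63, and its regulator PDR1 had levels of -0.30, -0.50, 0.43 and 1.79, a difference of 1.51 ± 0.52. YOR1 lay the other way, and PDR5, the transporter gene best known for multidrug resistance, differed by -0.71 ± 0.36, below 2-fold. At equal spread SNQ2 kept a difference of 0.76 but its arrays overlapped. The median of the 11 genes was -0.13. Of 7 late ergosterol genes, ERG6 was past 2-fold higher at 1.02 ± 0.38, ERG24 was lowest at -0.61 ± 0.39, and the median was 0.61, or 0.63 at equal spread.

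Large-subunit ribosomal protein genes, most of which have a paralog, lay lower as a group, though not with arrays at equal spread. Of 60 measured, 22 were past 2-fold lower (36.7%, against 5.94% of all strains) and 1 higher. The difference was negative in 48 of the 60, against 2493 of 5325 over all strains. RPL7A had levels of -3.77, -4.77, -6.04 and -6.01, a difference of -1.76 ± 0.45, and RPL6B had levels of -2.24, -3.01, -4.25 and -4.49, a difference of -1.74 ± 0.42. RPL41A alone was higher, with levels of -0.32, -0.31, 0.61 and 1.85 and a difference of 1.55 ± 0.49. The median was -0.70, but 0.02 with arrays at equal spread, and 9 members had a floor spot. At equal spread 5 of the 60 were past 2-fold higher and 3 lower. Of 27 pairs of paralogs both differences were negative in 19, while both genes were past 2-fold lower in 3, one gene in 16 and neither in 8. Small-subunit genes differed less, with 3 of 46 lower (6.52%), RPS9B (-1.26 ± 0.36), RPS6A (-1.23 ± 0.53) and RPS16B (-1.02 ± 0.49). RPS30B was highest at 0.65 ± 0.49. The median of -0.35 turned to 0.40 at equal spread, where 7 genes were past 2-fold higher and 0 lower.

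Mitochondrial ribosomal protein genes had a median of 0.31 over 53 genes, with 40 differences positive (2832 of 5325 over all strains), and -0.22 at equal spread. MRPL44 (1.32 ± 0.38) and RSM18 (1.02 ± 0.50) were past 2-fold higher and MRPL20 lower (-1.68 ± 0.50). In iron-sulfur cluster assembly, JAC1, a co-chaperone gene, was lower beside ISU1, with levels of 2.10, 0.68, -0.05 and -0.50 and a difference of -1.67 ± 0.54. Among 12 genes of mitochondrial shape, PCP1, a rhomboid protease gene, was higher at 1.20 ± 0.41 beside MDM10 and MDM12, none was lower, and the median was 0.31. TCA cycle genes had 1 of 16 past 2-fold, LPD1 at -1.50 ± 0.46, with IDH1 highest at 0.75 ± 0.44. For LPD1 the sections gave -2.87 and -0.13. AAT1 and AAT2, which encode aspartate aminotransferases, differed by 0.02 ± 0.37 and 0.00 ± 0.52; AAT2 was high throughout, with levels of 4.37, 4.50, 5.13 and 3.76.

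The oxidative stress list had 3 of 13 genes lower (23.1%, against 5.94% of all strains) and none higher. AHP1, the thioredoxin peroxidase gene described above, was not in this list and was higher past 2-fold at 2.27 ± 0.70. TRR1, the thioredoxin reductase gene, had levels of 1.90, 1.99, -1.02 and 0.92, a difference of -2.0 ± 0.63. SKN7, a transcription factor gene, had levels of 4.00, 2.58, 2.18 and 1.76, a difference of -1.32 ± 0.54, and ZWF1, which feeds the pentose phosphate pathway, differed by -1.14 ± 0.44. TRR1 and SKN7 started high and ZWF1 low, with a level of -1.34 at 25 µg/ml. TRX2, a thioredoxin gene, had the highest difference of the list, 0.58 ± 1.08, and its levels of -1.29, 2.45, 1.00 and 1.31 show that the arrays of the lower pair were far apart.

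Peroxisome biogenesis genes had a lower median on all 4 arrays than at 20 µg/ml, though not every member was lower. The list's median went from 0.23 at 20 µg/ml to -0.65, -0.97, -1.37 and -1.46. PEX2 was at 0.65 at 20 µg/ml and at -4.0, -4.77, -5.33 and -5.81 on the 4 arrays, a difference of -1.19 ± 0.43, and PEX14 was at -2.54, -3.70, -4.33 and -4.61, a difference of -1.35 ± 0.48. The widest step of PEX2 was thus between 20 and 25 µg/ml, while PEX29 was at 1.57 at 20 µg/ml and at 1.56, 1.71, 1.86 and 2.30 on the 4 arrays. Of 27 genes 8 were past 2-fold lower (29.6%) and none higher, PEX29 being highest at 0.44 ± 0.38. At equal spread the median difference of -0.46 turned to 0.15, and 1 gene was past 2-fold higher and 0 lower. Transfer RNA modification and Elongator had 4 of 11 lower, ELP6 (-1.36 ± 0.43), ELP2 (-1.24 ± 0.62), ELP4 (-1.16 ± 0.44) and URM1 (-1.02 ± 0.38). UBA4 was highest at 0.01 ± 0.47. The median of -0.46 turned to 0.06 at equal spread, where 2 genes were past 2-fold higher and 0 lower.

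Vacuolar protein sorting had 5 of 41 lower (12.2%, against 5.94% of all strains) and none higher. The share lower was also 12.3% among the reference genes whose loss a haploid does not survive. With arrays at equal spread 1 of the 41 was higher and 3 were lower. VPS52, a subunit of a tethering complex at the Golgi, was lowest at -1.56 ± 0.43 and VPS34 highest at 0.71 ± 0.51. None of 36 autophagy genes was past 2-fold, the range being from -0.94 (ATG9) to 0.91 (ATG32). The vacuolar ATPase list had VMA10 higher (1.25 ± 0.58) and VMA7 (-1.43 ± 0.60) and VMA6 (-1.09 ± 0.49) lower among 18 genes (5.56% and 11.1%), subunits of one enzyme with differences of both signs. Of 15 listed nuclear pore genes NUP188 was lower, -1.35 ± 0.46, and NUP60 highest at 0.33 ± 0.39. GLE2, the nuclear pore gene described above, was not in this list and was higher past 2-fold at 2.17 ± 0.45. Of 44 amino acid synthesis genes, THR1 was higher (1.07 ± 0.41) and ARG7, ARG3 (-1.22 ± 0.40) and TRP2 (-1.05 ± 0.52) lower. DNA repair had 2 of 19 higher (10.5%), PSO2 (1.42 ± 0.64) and RAD24 (1.17 ± 0.40), and 3 lower (15.8%), RAD18 (-1.43 ± 0.62), RAD5 (-1.12 ± 0.46) and MMS22 (-1.10 ± 0.36). RAD5 and RAD18 work in the same tolerance pathway for damaged DNA, and both were lower at each dose than at the one before.

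**Figure D4:**
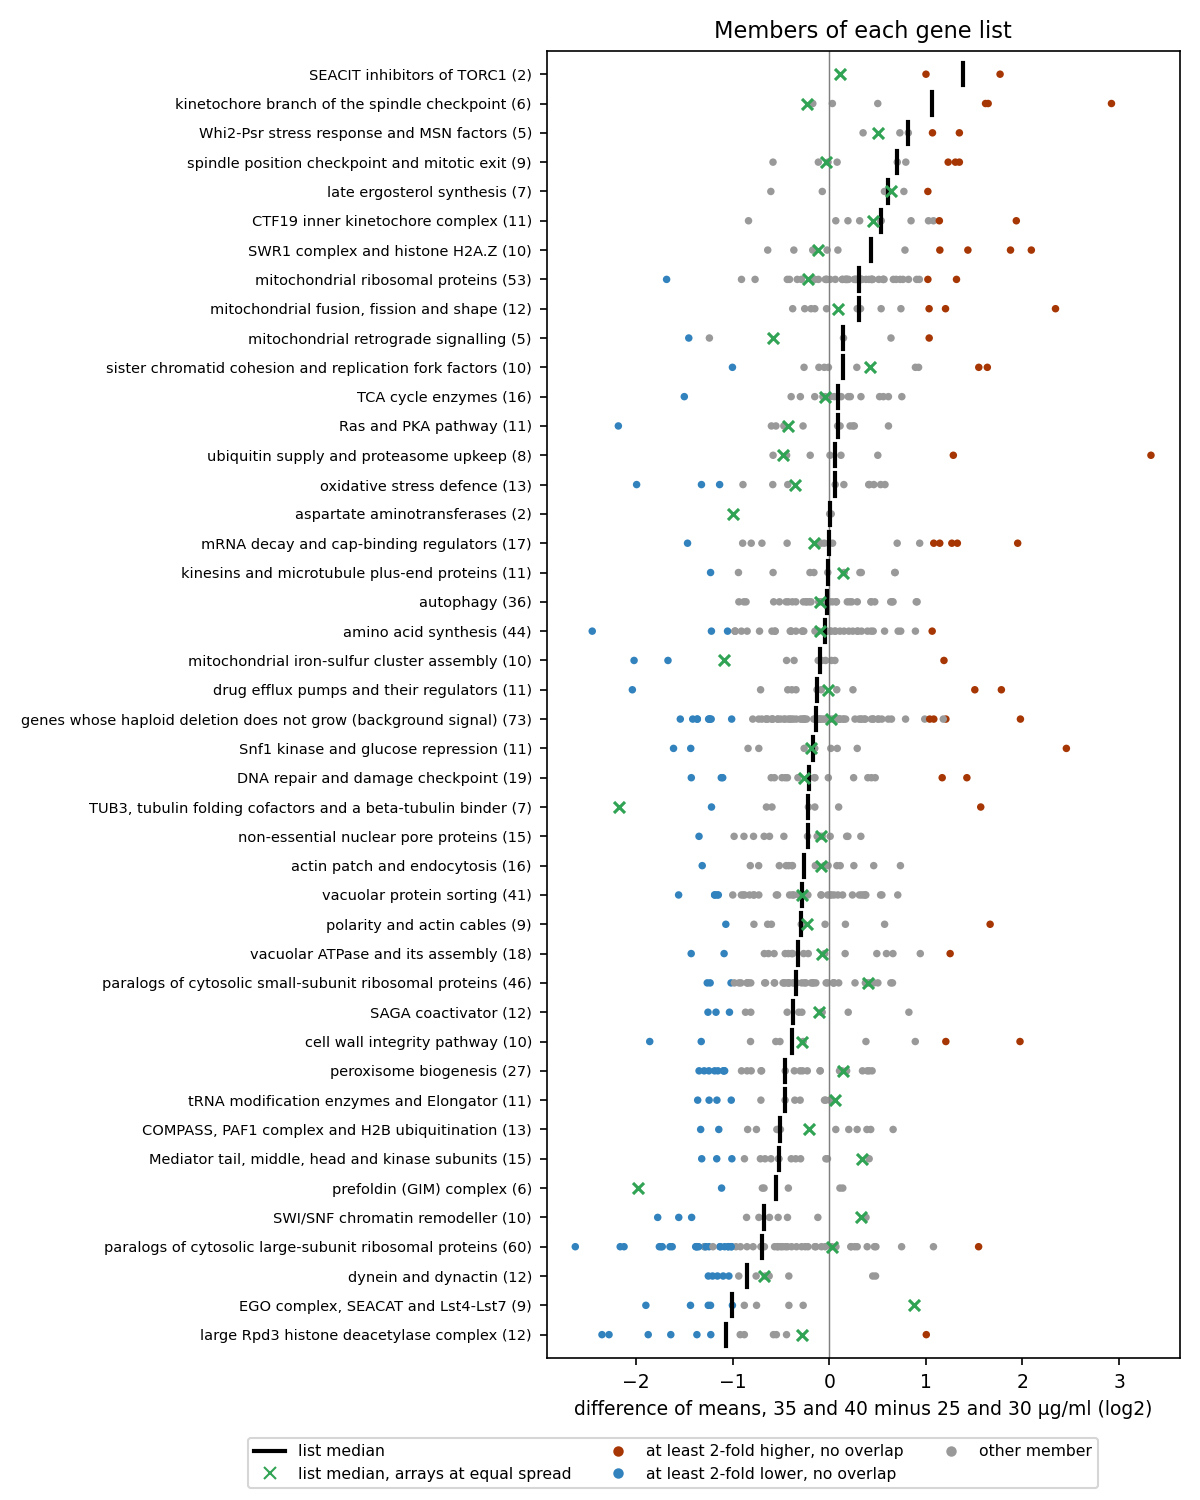
Difference between the mean level at 35 and 40 and at 25 and 30 µg/ml (x axis, log2) for each measured member of 44 gene lists (rows, number of members in brackets, ordered by median). Red and blue points are at least 2-fold without overlap, black bars list medians and green crosses the medians with arrays at equal spread, which lie on the other side of 0 for lists such as SWI/SNF, EGO and SWR1 and stay on the same side for the large Rpd3, dynein and CTF19 lists.

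More strains were far from the median at both upper doses than at both lower doses. Levels of at least 1 at both 25 and 30 µg/ml were found in 399 strains and at both 35 and 40 µg/ml in 539, with 317 strains in all 4. Levels of -1 or less were found in 376 strains at both lower doses and in 534 at both upper doses, with 313 in all 4. Of the strains past 2-fold, 128 of 265 higher and 172 of 316 lower shifted the same way in all 3 steps from 25 to 40 µg/ml.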

How the data were processed

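The authors' deposited series table gives a log2 ratio for every spot, 1 column per array. Per the labels, images came from a GenePix 4000B scanner read with the GenePix 5.1 program; how the authors normalised the ratios, and which dye is the numerator, the labels do not state. The table held 22575 spots, 18794 with a gene name. Spots coded with a ratio of 1000000 (5 on the 4 arrays) were set to missing, and spots at the ratio floor of 0.01 were kept and counted. Each array was centred on the median of its named spots and spots were averaged per gene, giving 5325 strains, 5321 of them matched to a RefSeq gene table (used for names and neighbours only). Both sections of the layout, which hold the named genes a second time at a fixed offset, were also used alone; what sets them apart is not stated.

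Means of 2 arrays were compared with limma 3.58.1 (lmFit, eBayes, R 4.3.3) on the 4 arrays, with 2 residual and 4.82 prior degrees of freedom, Benjamini-Hochberg adjustment over all strains and a threshold of 0.05; the script was tested on simulated data. Scaling to equal spread gave every array the same median absolute deviation over strains. The equal-spread, quantile, floor, section, line and leave-one-out alternatives are in the closing section.

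Named strains were the 15 largest per direction (values on all 4 arrays, no overlap, same sign in both sections), the highest and lowest member of each of 44 gene lists (those of the polarity list are not reported here), and all members of the lists for tubulin cofactors, prefoldin and the spindle checkpoint. Other list members past 2-fold, partners and paralogs, and strains kept out by the conditions, were named after their values were seen. The arrays and lists were chosen with earlier results of these data known. p-values measure the spread between these arrays only. The number of arrays limits the precision.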

Additional observations from a re-analysis of the deposited data

Results flagged for a closer look

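Spots with no gene name in the table stood out at the upper doses. Of 1242 such spots with a value, 31.24% at 35 µg/ml and 46% at 40 µg/ml were at least 2-fold off the median, against 10.84% on the array without drug. Named spots gave 38.03%, 46.18% and 10.58% on the same 3 arrays. At 25 and 30 µg/ml the unnamed spots were at 24.21% and 30.11%. What these spots carry is not stated in the table, and no comparison above uses them. No group had the 4 or more arrays that a search for single outlying arrays needs.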

How the results depend on the processing

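The counts of strains called by limma, 0 higher and 0 lower, were the same under all of the 17 alternatives except the fit of all 10 arrays as 5 dose pairs, which called 1 strain higher (RPN10) and 0 lower. The error in that fit comes in part from arrays at lower doses, where levels were less spread. At an unadjusted p under 0.05, that fit had 466 higher and 344 lower, and a line against dose over the 4 arrays had 383 and 443, with a lowest adjusted p of 0.126. The count past 2-fold higher, 265, was 169 after quantile normalization, where 217 were lower. Leaving out 1 array at a time gave from 292 to 591 higher and from 277 to 604 lower, the highest of each without the 35 µg/ml array. All 30 strains named for size kept their direction under every alternative run for them, and 57 of the 91 other named strains did. For the 30 this was fixed in advance in the section and leave-one-out runs. They had been chosen for no overlap and the same sign in both sections, so the 30 and the 91 cannot be compared on this count. Of 44 list medians 15 kept their sign under all 14 alternatives run and 29 turned under at least 1. No paired analysis was possible because each dose is a single array and the replicate numbers here follow accession order. Levels at the ratio floor limit the lower end: 36 strains had a floor spot, 25 of them among the 316 lower past 2-fold.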
